A study of Thermothelomyces thermophilus ATCC 42464 with 4 samples.

Results

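Genes of starch and alpha-glucan families, 3 in number, were followed in mycelia of *Myceliophthora thermophila* that were growing on cellulose. They are *Mycth_104674*, described as a protein of glycoside hydrolase family 31 (GH31), *Mycth_108416*, described as a bifunctional protein that joins glycoside hydrolase family 13 to glycosyltransferase family 5 (GH13-GT5), and *Mycth_2303089*, an alpha-glucosidase gene. They were chosen by identifier, and all 3 were found among the 8716 genes of the table. The 4 RNA-seq libraries comprise 2 of the strain labelled ΔMtTrh-1 and 2 of the wild type MtWT, both of strain ATCC 42464. Both strains had first been grown on 2% glucose (16 h, 45°C) and were then washed and kept for 4 h on Avicel, a crystalline cellulose, at 2%. No library from starch was analysed here.

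Alpha-glucans are chains of glucose joined by alpha linkages, and starch and glycogen are the common storage forms. Fungi that feed on starch secrete alpha-amylases, and also glucoamylase, which releases glucose from chain ends. They further secrete alpha-glucosidases, which cut the shorter maltose-type sugars. Family GH31 holds alpha-glucosidases but also alpha-xylosidases and other enzymes, so the family name alone does not give the substrate. The pairing of a GH13 with a GT5 domain is known from the alpha-glucan synthases of fungal cell walls, in species such as *Schizosaccharomyces pombe* and *Aspergillus*, which build an alpha-glucan and do not digest one. By these roles the name of a starch gene goes with *Mycth_2303089*, cannot be given to *Mycth_104674* from its family alone, and goes against the known role of the domain pair of *Mycth_108416*.

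The gene that the study deleted, *Mttrc-1* (*Mycth_90344*), was looked at first as a check of the labels. In the source and genotype labels the deleted gene is called MtTrh-1, the sample titles giving that name without the Δ. It was taken as another name of *Mttrc-1* from the title of the data set, without a test. *Mycth_90344* had 215.45 and 223.41 FPKM in the libraries labelled ΔMtTrh-1, against 13.29 and 14.47 FPKM in the MtWT libraries. FPKM, fragments mapped to a gene per unit of its length and of the library's fragments, are scaled to gene length and library size, so the levels of different genes can be compared. A higher level is not that of a gene deleted whole. The title also names Cbh-1 as a gene under MtTrh-1. The cellobiohydrolase gene *cbh-1* (*Mycth_109566*), added after its values had been seen, had 4339 and 3953 FPKM in the libraries labelled ΔMtTrh-1, against 13240 and 16027 FPKM in MtWT, and was called lower, with a log2 fold change of −1.81 (limma adjusted p = 2.3e-07). Whether the labels are right was not tested, and the wording "labelled ΔMtTrh-1" is kept for every direction given here. The study made its deletion strain with CRISPR-Cas9 and a marker cassette. How much of the gene is left in that strain was not examined here. That the libraries labelled ΔMtTrh-1 stem from that strain was assumed, and no complemented strain was analysed here. Whether a strain's 2 libraries stem from different cultures is not in the labels, and the p-values then reflect only how far these libraries differ, which may be technical. FPKM sums were between 725984 and 741923, and the depth is unknown.

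The GH31 gene *Mycth_104674* was lower in the libraries labelled ΔMtTrh-1, and the GH13-GT5 gene *Mycth_108416* was higher. The alpha-glucosidase gene *Mycth_2303089* was barely expressed in either strain. *Mycth_104674* had 4.16 and 4.10 FPKM in the libraries labelled ΔMtTrh-1, against 25.18 and 22.90 FPKM in MtWT. Both libraries labelled ΔMtTrh-1 thus lay far below both MtWT libraries, and the libraries of a strain lay close together. Its mean was 4.13 ± 0.04 FPKM in the libraries labelled ΔMtTrh-1 and 24.0 ± 1.6 FPKM in MtWT (SD, n = 2 each), 5.82-fold higher in MtWT. On the log2(FPKM + 1) scale, used for every gene whose mean reached 1 FPKM, this was a log2 fold change of −2.29 (standard error 0.08, 95% interval −2.47 to −2.10, adjusted p = 1.5e-08 from limma).

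*Mycth_108416* had 64.12 and 63.30 FPKM in the libraries labelled ΔMtTrh-1, against 28.59 and 27.78 FPKM in MtWT. The strains did not overlap, and within each strain the libraries differed by less than 1 FPKM. The mean was 63.7 ± 0.6 FPKM in the libraries labelled ΔMtTrh-1 and 28.2 ± 0.6 FPKM in MtWT (SD, n = 2 each), a ratio of 2.26. The log2 fold change was 1.15 (standard error 0.05, 95% interval 1.03 to 1.27, adjusted p = 1.1e-07 from limma). This call lies near the fold threshold of 1. When limma's treat tested whether the change exceeds that threshold, rather than whether it differs from 0, the adjusted p was 0.16.

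*Mycth_2303089* had 0.40 and 0.32 FPKM in the libraries labelled ΔMtTrh-1, against 0.73 and 0.79 FPKM in MtWT. All 4 values lay below 1 FPKM, and those labelled ΔMtTrh-1 lay below both MtWT values. With a mean of 0.56 FPKM over the 4 libraries the gene fell under the filter and was not part of the test. In a fit without the filter its log2 fold change was −0.37 (95% interval −0.61 to −0.14) with a limma adjusted p of 0.02, as 56.5% of genes in that fit had a p under 0.05, and it did not reach the fold threshold. On this scale the added 1 FPKM is larger than the values themselves. The mean was 0.36 ± 0.06 FPKM in the libraries labelled ΔMtTrh-1 and 0.76 ± 0.04 FPKM in MtWT (SD, n = 2 each), a ratio of 0.474. A pseudocount of 0.1 gave a log2 fold change of −0.91 (95% interval −1.52 to −0.30).

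**Figure D1:**
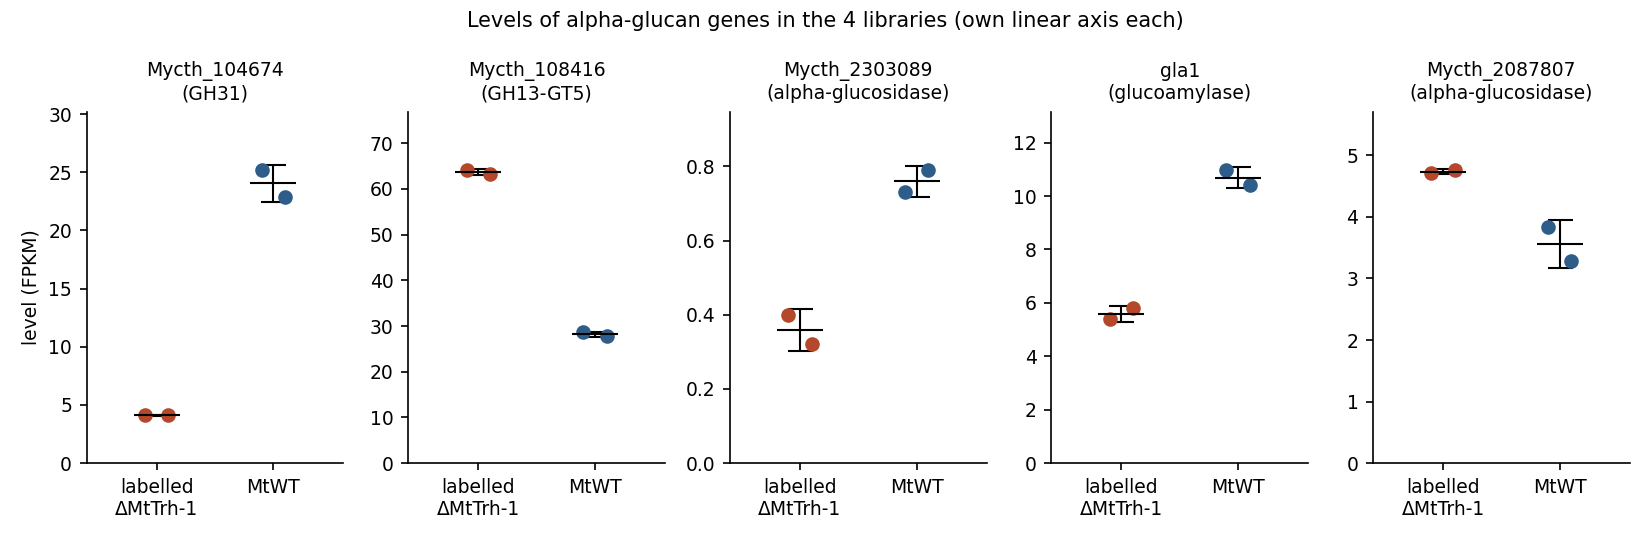
Level in FPKM of the 3 genes, of the glucoamylase gene *gla1* and of *Mycth_2087807*, described as an alpha-glucosidase. Libraries labelled ΔMtTrh-1 are on the left in each panel and MtWT on the right. Points are libraries, and bars are the mean with the SD (n = 2). Each panel has its own axis from 0. *Mycth_104674* falls to about 4 FPKM in the libraries labelled ΔMtTrh-1, *Mycth_108416* reaches above 60 FPKM there, and *Mycth_2303089* stays under 1 FPKM in all 4 libraries.

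Of the 7525 genes tested, 10.3% were called, 4.96% as lower and 5.3% as higher. A call needed a limma adjusted p under 0.05 together with a log2 fold change whose size exceeded 1. One of the 3 genes was lower, 1 was higher and 1 was not tested. With so few genes, this count is read as a description of each gene and not of a group. *Mycth_104674* had rank 53 from the most negative log2 fold change, and 98.4% of the genes tested changed by less in size. *Mycth_108416* had rank 300 from the most positive one, and 92.0% changed by less. The median log2 fold change of all genes tested was 0.03. Lack of overlap between the strains was itself common, since 82.9% of the genes tested showed it.

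**Figure D2:**
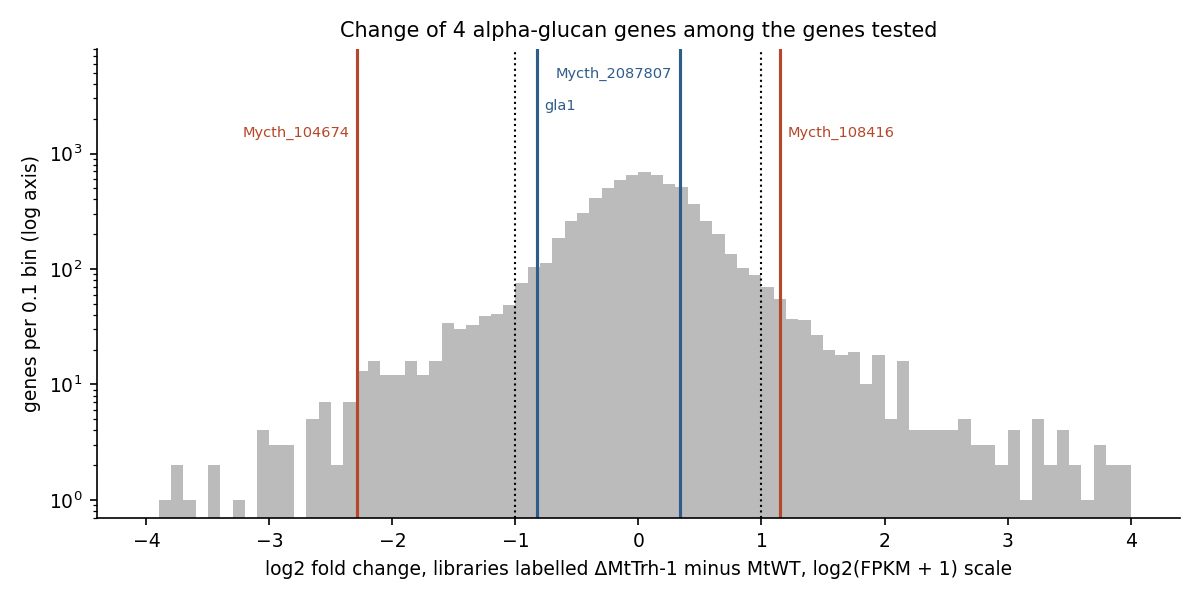
Histogram of the log2 fold change (libraries labelled ΔMtTrh-1 minus MtWT, on the log2(FPKM + 1) scale) over 7525 genes, with the number of genes per bin of 0.1 on a log axis. Solid lines mark 4 genes of starch and alpha-glucan families, and dotted lines mark the fold threshold of 1 in either direction. The 26 genes beyond 4 in size are not drawn. *Mycth_104674* stands in the lower tail, *Mycth_108416* just past the upper threshold, and *gla1* and *Mycth_2087807* between the thresholds.

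Within the transcriptome of each library, the order of the 3 genes by level was the same, with *Mycth_108416* highest, *Mycth_104674* next and *Mycth_2303089* lowest. In MtWT, *Mycth_108416* and *Mycth_104674* stood side by side, and in the libraries labelled ΔMtTrh-1 they were far apart. The ratio of *Mycth_108416* to *Mycth_104674*, which does not depend on how libraries are scaled to each other, was 15.4 in both libraries labelled ΔMtTrh-1, against 1.14 and 1.21 in the MtWT libraries. By level, *Mycth_104674* exceeded 26.3% and 26.0% of all genes in the libraries labelled ΔMtTrh-1, against 64.0% and 61.7% in MtWT. *Mycth_108416* exceeded 82.2% and 82.1% of genes in the libraries labelled ΔMtTrh-1, against 66.7% and 66.1% in MtWT. *Mycth_2303089* exceeded 9.81% and 8.98% in the libraries labelled ΔMtTrh-1, against 12.4% and 12.7% in MtWT, and so was among the least expressed genes of both strains.

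Genes of starch digestion outside the 3 genes were then set beside them. The glucoamylase gene of the study, *Mycth_72393*, is listed in the table under the symbol *gla1* and was added after its values had been seen. It had 5.39 and 5.81 FPKM in the libraries labelled ΔMtTrh-1, against 10.97 and 10.41 FPKM in MtWT. Both libraries labelled ΔMtTrh-1 lay below both MtWT libraries, with a log2 fold change of −0.83 (standard error 0.09, 95% interval −1.02 to −0.63, limma adjusted p = 2.5e-05). Its size is below the fold threshold, so *gla1* was not called, nor was it when any 1 library was left out.

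*Mycth_2087807*, the other gene described as an alpha-glucosidase, had 4.71 and 4.76 FPKM in the libraries labelled ΔMtTrh-1, against 3.83 and 3.28 FPKM in MtWT. The log2 fold change of *Mycth_2087807* was 0.33 (95% interval 0.09 to 0.58, adjusted p = 0.02 from limma), and it was not called either. With no fold threshold, 65.5% of the genes tested had an adjusted p under 0.05, so such a p is the usual case in these libraries.

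Among *Mycth_104674*, *Mycth_2303089*, *gla1* and *Mycth_2087807* the order by level differed between the strains. In MtWT, *Mycth_104674* was the highest of the 4, at 2.30 and 2.20 times *gla1* and 6.57 and 6.98 times *Mycth_2087807*. In the libraries labelled ΔMtTrh-1 it stood at 0.77 and 0.71 times *gla1* and at 0.88 and 0.86 times *Mycth_2087807*. The ratio of *gla1* to *Mycth_2303089* was 13.5 and 18.2 in the libraries labelled ΔMtTrh-1, against 15.03 and 13.2 in MtWT, and these ranges overlap. With *Mycth_2303089* so near the floor, the overlap cannot show that the ratio was kept. All 4 genes stayed below 26 FPKM in all libraries, on a medium that contained no starch.

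Descriptions came from the part at hand of the expression results that the study published, and cover 1490 genes of the table. The lists below hold only part of each pathway and may not be a fair sample of it. The starch list held *Mycth_104674*, *Mycth_108416* and *Mycth_2087807*, and no gene was found for a list of glycogen metabolism. The trehalose list held *Mycth_2082262*, of glycosyltransferase family 20, which makes trehalose phosphate. It had 81.5 and 82.2 FPKM in the libraries labelled ΔMtTrh-1, against 74.8 and 77.1 FPKM in MtWT, and its log2 fold change of 0.11 had an interval that included 0 (95% interval −0.01 to 0.22, adjusted p = 0.09 from limma).

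Because the GH13-GT5 pair is known from wall synthesis, *Mycth_108416* was also set beside a list of 5 described cell wall genes. None of the 5 was called by limma, beside 10.3% of all genes tested. At an unadjusted p under 0.05 with no fold threshold, 4 of the 5 were higher, beside 35.7% of all genes tested. Their median log2 fold change was 0.55, beside 0.03 for all genes tested. The list was chosen with earlier results of these data known, so these shares describe its 5 genes only. *Mycth_140260*, of glycosyltransferase family 48, the family of beta-glucan synthases, had 82.3 and 83.4 FPKM in the libraries labelled ΔMtTrh-1, against 56.3 and 56.3 FPKM in MtWT, a log2 fold change of 0.55. *Mycth_106819*, a beta-glucan transglucosylase, which remodels wall glucan, had a log2 fold change of 0.54. The 2 genes of glycosyltransferase family 2, a family that includes chitin synthases, had 0.76 (*Mycth_112916*) and 0.69 (*Mycth_10713*). Only *Mycth_108391*, of glycoside hydrolase family 72, had an adjusted p above 0.05 in limma, with 0.15 and a 95% interval of −0.18 to 0.47. The intervals of the 5 wall genes all ended below 1, and that of *Mycth_108416* began at 1.03. By limma's treat, however, *Mycth_108416* was not shown to exceed 1 (adjusted p = 0.16). The difference between *Mycth_108416* and the wall genes was not tested.

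**Figure D3:**
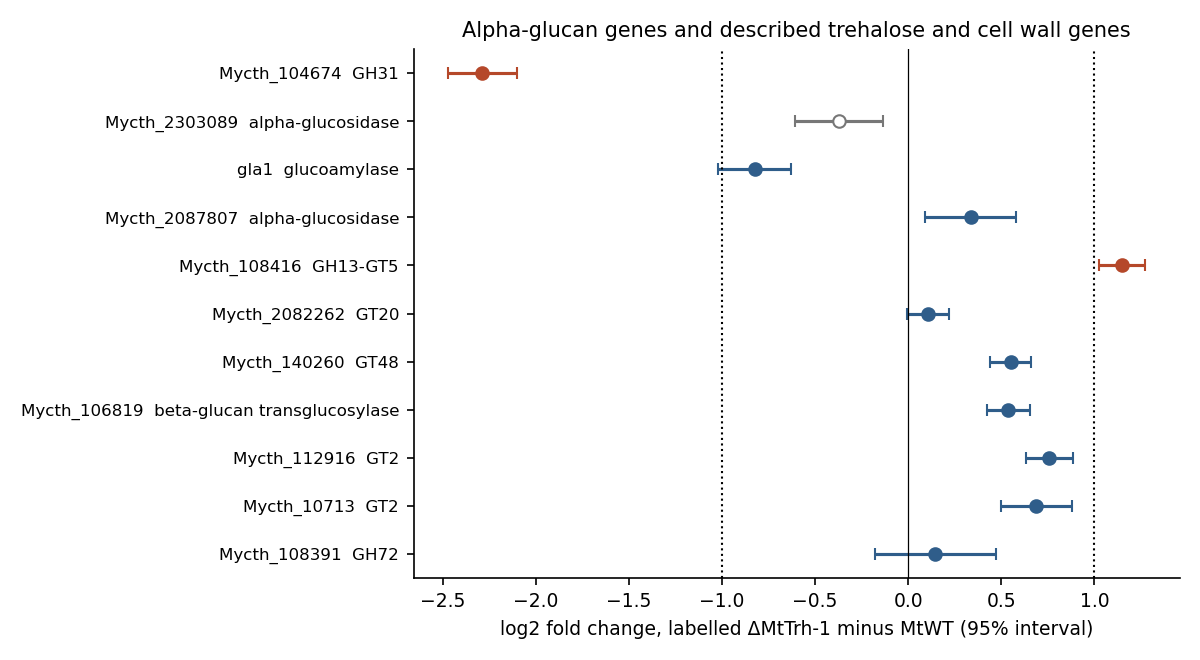
Log2 fold change (libraries labelled ΔMtTrh-1 minus MtWT, log2(FPKM + 1) scale) with its 95% interval from limma. Shown are 5 genes of starch and alpha-glucan families and the described trehalose and cell wall genes. Red points passed both thresholds, blue points did not, and the open point of *Mycth_2303089* comes from a fit without the filter on low values. Dotted lines mark a log2 fold change of 1 in size. *Mycth_104674* at −2.29 and *Mycth_108416* at 1.15 are the 2 called genes, and the wall genes lie between 0.15 and 0.76.

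As glycoside hydrolases, *Mycth_104674* and *Mycth_108416* belong to a larger class that includes the enzymes of cellulose and hemicellulose digestion. Of 12 other glycoside hydrolase genes so described and tested, 7 were lower and 5 were not called, beside 4.96% of all genes tested that were lower. None of the 12 was called higher by limma, beside 5.3% of all genes tested, and 3 were higher at an unadjusted p under 0.05, beside 35.7%. The nearest to a call was *Mycth_101800*, with a log2 fold change of 0.996, named here after its value was seen. Over these 12 genes the median log2 fold change was −1.65. Among the 7 lower genes was *Mycth_112089* (log2 fold change −2.38), described as glycoside hydrolase family 61A. The study names it as a lytic polysaccharide monooxygenase gene, so the 12 genes go by description and not by enzyme type. *Mycth_104674* was lower, as were 7 of these 12 genes, and *Mycth_108416* was higher, as was none of them. The class was described in part only, so the 12 genes may not be a fair sample of it.

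The genes that flank the 3 genes in the order of the RefSeq annotation (assembly ASM22609v1) were examined next, 2 on each side. For the 2 called genes, direct neighbours were called in the same direction, and for *Mycth_2303089* none was called. On one side of *Mycth_104674* lies *Mycth_58882*, for which no description was held. It had 1.11 and 1.07 FPKM in the libraries labelled ΔMtTrh-1, against 15.58 and 14.85 FPKM in MtWT, which is a change of −2.96 on the log2 scale (limma adjusted p = 8.2e-09). With a pseudocount of 5 it had −1.73 and with 0.1 it had −3.69. On the other side lies *Mycth_104673*, described by a conserved site of sugar transporters, proteins that carry sugars across membranes. It had 0.91 and 1.13 FPKM in the libraries labelled ΔMtTrh-1, against 6.13 and 5.18 FPKM in MtWT, which is a change of −1.72 on the log2 scale (limma adjusted p = 2.7e-06). With a pseudocount of 5, which weighs heavily on so low a gene, *Mycth_104673* had −0.82 and was not called. The next gene beyond *Mycth_58882*, *Mycth_2309695*, had −0.68 and was not called, and *Mycth_2120504*, next to *Mycth_104673*, was not analysed here.

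Beside *Mycth_108416* lie *Mycth_2305783* and then *Mycth_83025*, both without a description here. *Mycth_2305783* was far more abundant, with 692.64 and 712.90 FPKM in the libraries labelled ΔMtTrh-1, against 343.85 and 340.02 FPKM in MtWT. The log2 fold change of this neighbour was 1.04 (95% interval 0.93 to 1.14, adjusted p = 8.6e-08 from limma), which dropped to 0.97 and lost its call under quantile normalization. *Mycth_83025* had 94.35 and 95.30 FPKM in the libraries labelled ΔMtTrh-1, against 43.64 and 40.70 FPKM in MtWT, a log2 fold change of 1.15. The ratio of *Mycth_83025* to *Mycth_108416* was 1.47 and 1.51 in the libraries labelled ΔMtTrh-1, against 1.53 and 1.47 in MtWT. These ranges overlap. With 2 libraries a strain, the overlap cannot show that the proportion of the 2 genes was kept. Like *Mycth_108416*, neither gene passed limma's treat, with an adjusted p of 1 for *Mycth_2305783* and 0.16 for *Mycth_83025*. On the other side of *Mycth_108416*, the annotation has the tRNA gene *Mycth_t100*, which was not analysed here, and *Mycth_2305771*, which had a log2 fold change of −0.03.

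The 4 neighbours of *Mycth_2303089* differed widely in level, and the 2 on one side were low as well. *Mycth_2303088* had 862.06 and 913.19 FPKM in the libraries labelled ΔMtTrh-1, against 808.83 and 779.63 FPKM in MtWT, a log2 fold change of 0.16. *Mycth_68580*, which lies between it and *Mycth_2303089*, had −0.02. *Mycth_2303090*, the direct neighbour on the other side, had 0.85 and 0.96 FPKM in the libraries labelled ΔMtTrh-1, against 1.53 and 1.6 FPKM in MtWT, a log2 fold change of −0.43. *Mycth_2303093*, beyond it, had 1.86 and 1.51 FPKM in the libraries labelled ΔMtTrh-1, against 1.52 and 1.72 FPKM in MtWT, and its log2 fold change was 0.03. The lowest adjusted p of the 4 was 0.02 (limma), and none passed the fold threshold.

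Neighbouring genes called in 1 direction were not usual in these libraries. Of 6279 neighbouring pairs in which both genes were tested, 0.733% were lower together and 0.685% were higher together. Seen from a lower gene, its tested neighbour was also lower on 16.6% of sides, beside 4.96% of all genes tested. Seen from a higher gene, the share was 13.5%, beside 5.3%. Runs of at least 3 adjacent called genes numbered 6 for lower genes, among them that of *Mycth_58882*, *Mycth_104674* and *Mycth_104673*, and 4 for higher genes, among them that of *Mycth_108416*, *Mycth_2305783* and *Mycth_83025*. These shares are descriptions over genes, which are not independent replicates. How strand was treated in making the FPKM is not known here, and a part of reads shared between adjacent genes was not tested.

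**Figure D4:**
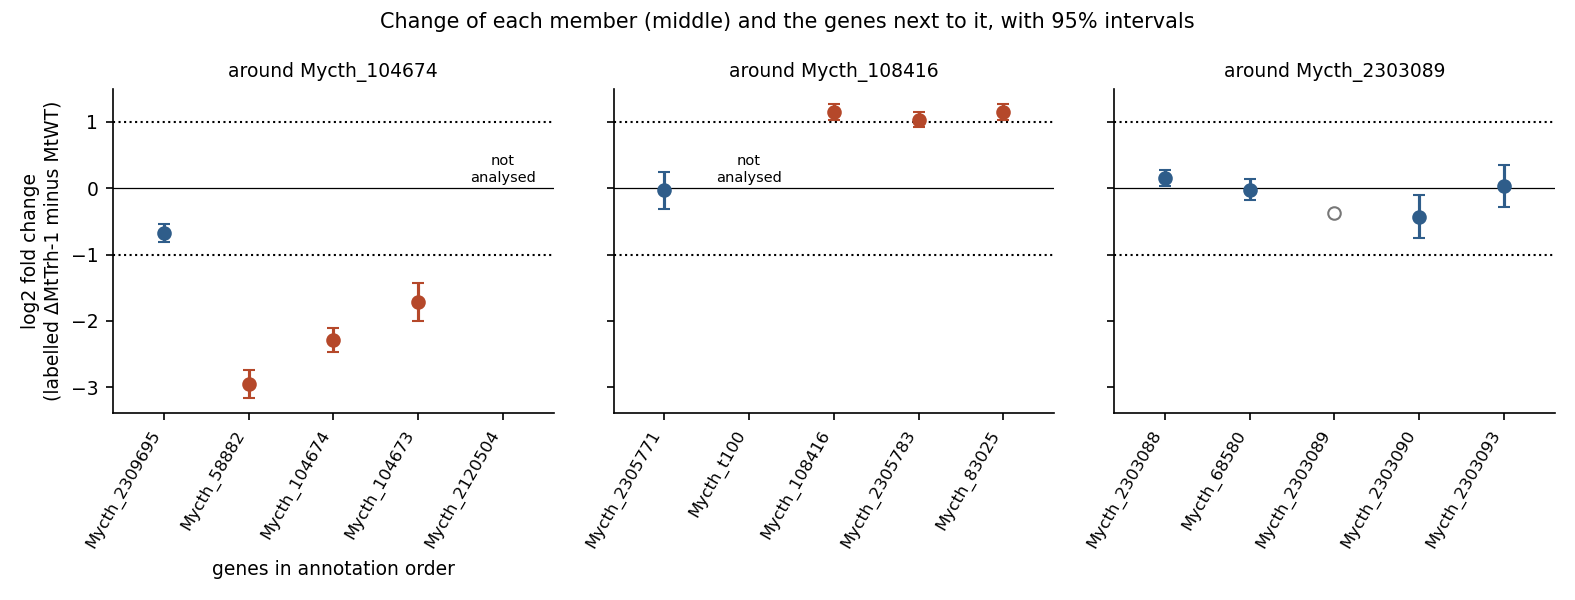
Log2 fold change (libraries labelled ΔMtTrh-1 minus MtWT) of *Mycth_104674*, *Mycth_108416* and *Mycth_2303089*, each in the middle of its panel, and of the 2 genes on each side in annotation order. Bars are 95% intervals from limma, red points passed both thresholds, the open point was not tested, and dotted lines mark 1 in size. The genes beside *Mycth_104674* reach −2.96 and −1.72, those after *Mycth_108416* lie at 1.04 and 1.15, and those around *Mycth_2303089* stay between −0.43 and 0.16.

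The genes whose 4 values lay nearest to those of each of the 3 genes were found by the Euclidean distance on the log2(FPKM + 1) scale over the 4 libraries. This measure takes in level and difference alike, and over 4 libraries of 2 strains many genes come close. Nearest to *Mycth_104674* were *Mycth_2300047* (distance 0.06), *Mycth_2072383* of glycoside hydrolase family 43 (0.19) and *Mycth_99098* (0.27). *Mycth_2300047* had 3.98 and 4.09 FPKM in the libraries labelled ΔMtTrh-1, against 25.89 and 22.98 FPKM in MtWT, nearly the values of *Mycth_104674* in each library. Nearest to *Mycth_108416* were *Mycth_2299137* (0.10), *Mycth_2313329* (0.16) and *Mycth_2300272* (0.17), for which no description was held. Nearest to *Mycth_2303089* were *Mycth_2303301* (0.12), *Mycth_2297764* (0.17) and *Mycth_2058169*, an acyltransferase (0.17), all of them below 1 FPKM in the 4 libraries.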

How the data were processed

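RNA-seq libraries of 2 strains (2 each) were analysed. The authors deposited 1 FPKM value for each of 8716 genes in each library. HISAT and Bowtie2 stand in the submitters' notes, and the quantifier, build and annotation of these values were not given in the sources used here. Methods of the study name TopHat, HTSeq-count and DESeq2, on counts of 3 replicates that were not analysed here.

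Here log2(FPKM + 1) was fitted in limma 3.58.1 (R 4.3.3, intensity trend, Benjamini-Hochberg adjustment) by strain alone, for 7525 genes whose mean reached 1 FPKM. The call rule (adjusted p under 0.05, log2 fold change over 1 in size) is that of the study. The added 1 FPKM makes the change of low genes look smaller. Exact permutation of 2 libraries against 2 gives p = 0.33 at best and was not used.

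On simulated data with 200 changed genes among 7525, the fit recovered 80% of genes below 10 FPKM changed 3-fold and 87.9% of those changed 6-fold. At or above 10 FPKM the shares were 97.1% and 100%, and 2 of 7325 unchanged genes were called. The simulated noise was independent between libraries and came from the spread within strains, which may be technical. Only 3-fold and 6-fold changes were simulated. The shares therefore do not carry over to smaller changes, such as that of *Mycth_108416*, or to spread between cultures.

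Genes named are the 3 members, *Mycth_90344*, genes of lists by words in the product descriptions at hand, 2 neighbours on each side, and the 3 nearest genes by Euclidean distance. Related proteins were not listed and no sequences are printed. Members and lists were chosen with earlier results of these data known. A RefSeq table (assembly ASM22609v1) held 8687 of the identifiers and was used only for symbols and gene order. Alternatives to the pseudocount, filter, scaling, variance model and call rule, a block and left-out libraries were tried. Plots used matplotlib 3.10.9.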

Additional observations from a re-analysis of the deposited data

How the results depend on the processing

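*Mycth_104674* was called lower under all 16 alternatives (log2 fold change −2.51 to −1.67), and *Mycth_108416* was called higher under 15 of 16 (1.05 to 1.18), the exception being limma's treat, with 1.15 and an adjusted p of 0.16. *Mycth_90344* was higher under all 16. The log2 fold change of *Mycth_2303089*, at −0.37, was −0.91 with a pseudocount of 0.1 (with or without the filter), −0.10 with a pseudocount of 5 and −0.44 with each library's FPKM rescaled to 1 common sum. It was tested only without the filter, where its adjusted p was 0.02 at −0.37 and, with a pseudocount of 0.1, 0.026 at −0.91, both short of the fold threshold. It would be called at −0.37 with no fold threshold. The unfiltered fits with a pseudocount of 0.1 and with no fold threshold were added after seeing the data. The 772 calls became 493 (240 lower, 253 higher) with a pseudocount of 5, 4926 (2356 lower, 2570 higher) with no fold threshold and 473 (240 lower, 233 higher) with treat. The 2 called genes of the 9 tested in the starch, trehalose and cell wall lists became 7 and 1 under the last 2 of these. Without each library in turn, calls ran between 756 and 789. Rescaling to a common sum moved mean levels in the libraries labelled ΔMtTrh-1 and in MtWT to 5.68 and 32.5 FPKM for *Mycth_104674*, 87.6 and 38.1 for *Mycth_108416*, and 0.495 and 1.03 for *Mycth_2303089*. Median-of-ratios scaling gave 4.08 and 63.0 FPKM for the first 2 in the libraries labelled ΔMtTrh-1. With a replicate block there were 773 calls, and log2 fold changes were the same as without it. Same-numbered libraries did not deviate together (correlation −0.02). With 2 libraries a strain, this cannot decide whether the numbers pair the samples. The number of reads is unknown, which leaves the counting error of *Mycth_2303089*, below 1 FPKM in all 4 libraries, without a value. With 2 libraries a strain, left-out fits assume that the lone library varies like the other strain.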
